A study of Mus musculus with 6 samples.

Results

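The microglia genes are 35 genes that mark the resident macrophages of the brain, chosen by name with earlier results of these data known. Every probe set whose only gene symbol was one of these names counted as theirs, which gave 56 probe sets. Of these, 39 probe sets of 32 genes exceeded the low-signal filter, which asked that a probe set be brighter than 40 percent of its array on 3 or more of the 6 arrays, so 32 of the 12903 genes tested are microglia genes. Tlr4, Spi1 and Il10ra had no probe set that was kept. Of the 32, 28 were above the filter level on all 6 arrays, and Itgam, Trem2, Tlr2 and Tlr7 on 3 or 4 of them. The genes were split by role into homeostatic genes, C1q and complement receptor genes, phagocytic and lysosomal genes, Toll-like receptor genes and leukocyte regulators.

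Gene expression was measured in the hippocampus of wild-type (WT) and Phf8 knockout (KO) mice on Affymetrix arrays, with 3 arrays for each genotype. Both groups were 10 weeks old and are labelled with the C57BL/6 background, and no treatment is given for either. Phf8 is an X-linked gene for a histone demethylase. The KO mice are described in the methods as males that lost the exons coding for the JmjC demethylase domain in the germline, through an EIIa-Cre transgene, and the WT mice as their male littermates. The allele was made in stem cells of another mouse strain and the line was then crossed to C57BL/6J, so sequence of that strain may remain around Phf8 in the KO mice. The methods speak of 3 mice as a sample, and whether an array holds 1 mouse or several is not settled, so p-values measure the spread between these arrays. Phf8 had log2 signals of 9.90, 9.66 and 9.73 in WT and 8.23, 8.55 and 7.99 in KO hippocampus, and KO differed from WT by -1.51 (standard error 0.17, adjusted p = 0.0527 in limma). The position of its probe set against the deleted exons was not examined. KO replicate 3 stood apart. Across genes it correlated at 0.925 to 0.940 with the other arrays, against 0.976 to 0.987 among those, and its median over 10 thalamus marker genes was 2.59 above WT, against 0.24 and 0.18 in KO replicates 1 and 2.

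Microglia enter the brain early in development and renew themselves there. They survive on signals through the receptor Csf1r, survey the tissue with processes guided by purinergic receptors, and receive a neuronal signal through Cx3cr1. In the hippocampus they are known for clearing dying cells and for removing synapses tagged by complement, which they recognise through the receptor formed by Itgam and Itgb2. Defining markers of the cell type were present on every array, with Csf1r between 12.03 and 12.11 and Tyrobp between 9.55 and 9.77 on the log2 scale.

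Promoter sequence is shown for 4 of the genes whose KO arrays all lay below the WT arrays, since these carry the differences described below. The sequences are the 250 bases before the RefSeq start of each gene in GRCm38.p6, written 5′ to 3′ along the gene, and capitals mark GAGGAA, on either strand, and GAAANNGAA. The first is the core of the purine-rich element to which the myeloid factor PU.1, encoded by Spi1, is known to bind, and the other resembles the interferon-stimulated response element. For Fcgr3 and Ptprc, 2 start sites are given in RefSeq and the first listed is shown.
Ctss, chr3:95526536-95526785, plus strand: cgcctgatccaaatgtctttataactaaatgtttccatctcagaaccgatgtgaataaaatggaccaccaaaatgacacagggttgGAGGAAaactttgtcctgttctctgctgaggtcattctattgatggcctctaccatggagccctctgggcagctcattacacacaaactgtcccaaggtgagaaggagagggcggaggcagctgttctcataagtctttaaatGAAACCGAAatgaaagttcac
Fcgr3, chr1:171059404-171059653, minus strand: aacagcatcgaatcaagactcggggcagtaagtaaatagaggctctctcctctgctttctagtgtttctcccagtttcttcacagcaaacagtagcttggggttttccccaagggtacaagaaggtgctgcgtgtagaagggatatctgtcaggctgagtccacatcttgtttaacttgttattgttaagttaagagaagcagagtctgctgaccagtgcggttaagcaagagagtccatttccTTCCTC
Lyz2, chr10:117282273-117282522, minus strand: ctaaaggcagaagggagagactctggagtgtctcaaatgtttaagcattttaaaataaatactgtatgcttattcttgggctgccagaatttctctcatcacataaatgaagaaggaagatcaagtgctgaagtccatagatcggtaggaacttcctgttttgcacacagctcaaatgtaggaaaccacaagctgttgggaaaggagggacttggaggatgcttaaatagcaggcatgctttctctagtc
Ptprc, chr1:138175306-138175555, minus strand: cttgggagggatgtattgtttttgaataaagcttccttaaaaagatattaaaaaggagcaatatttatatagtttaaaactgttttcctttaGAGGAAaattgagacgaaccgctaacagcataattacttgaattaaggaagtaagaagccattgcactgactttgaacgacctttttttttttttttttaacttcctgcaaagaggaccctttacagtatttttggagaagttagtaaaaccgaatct
In Ctss, GAGGAA lay 164 to 159 bases before the start and GAAANNGAA 21 to 13 bases before it. In Ptprc, GAGGAA lay 158 to 153 bases before the start, and in Fcgr3 it lay on the opposite strand directly before the start, read here as TTCCTC. No match to GAGGAA, GAGGAAGT, GAAANNGAA or TATAAA was found in the Lyz2 window. Of the 23 microglia genes with a promoter window searched, 13 (56.5%) held GAGGAA, against 25.9% of 27025 genes. A gene counted if any of its windows held the match. The longer GAGGAAGT, which contains GAGGAA, was found in Inpp5d and C1qc, 2 of 23, against 2.79% of all genes. GAAANNGAA was found in Ctss and Aif1, 2 of 23, against 8.18% of all genes. TATAAA was found in 4 of 23, against 14.3% of all genes. These are matches of letters, searched on both strands, and binding was not measured.

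No microglia gene passed an adjusted p of 0.05 in limma. The fit compared KO with WT over 12903 genes, of which 8 passed (0.062%), and the lowest adjusted p among the microglia genes was 0.285, for Ctss. Of the 32 genes, 24 had a lower mean in KO and 8 a higher one, while 48.1% of all genes tested had a lower mean in KO. The median difference was -0.14 on the log2 scale over the microglia genes and 0.01 over all genes. In whole tissue, fewer microglia and less RNA per cell cannot be told apart.
At an unadjusted p of 0.05 in limma, 5 of the 32 were lower in KO, namely Ctss, Fcgr3, Lyz2, Cd14 and Ptprc, against 2.79% of all genes. None was higher, against 4.69% of all genes, and the lowest unadjusted p among the genes with a higher mean was 0.128, for Cd68. All 3 KO arrays lay below all 3 WT arrays for these 5 genes and for Tmem119, which makes 6 of 32, against 7.13% of all genes. No microglia gene had all KO arrays above all WT arrays, against 9.56% of all genes. As the genes were chosen with earlier results of these data known, these shares are descriptive. An exact permutation test of 3 against 3 arrays cannot go below p = 0.1.

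**Figure D1:**
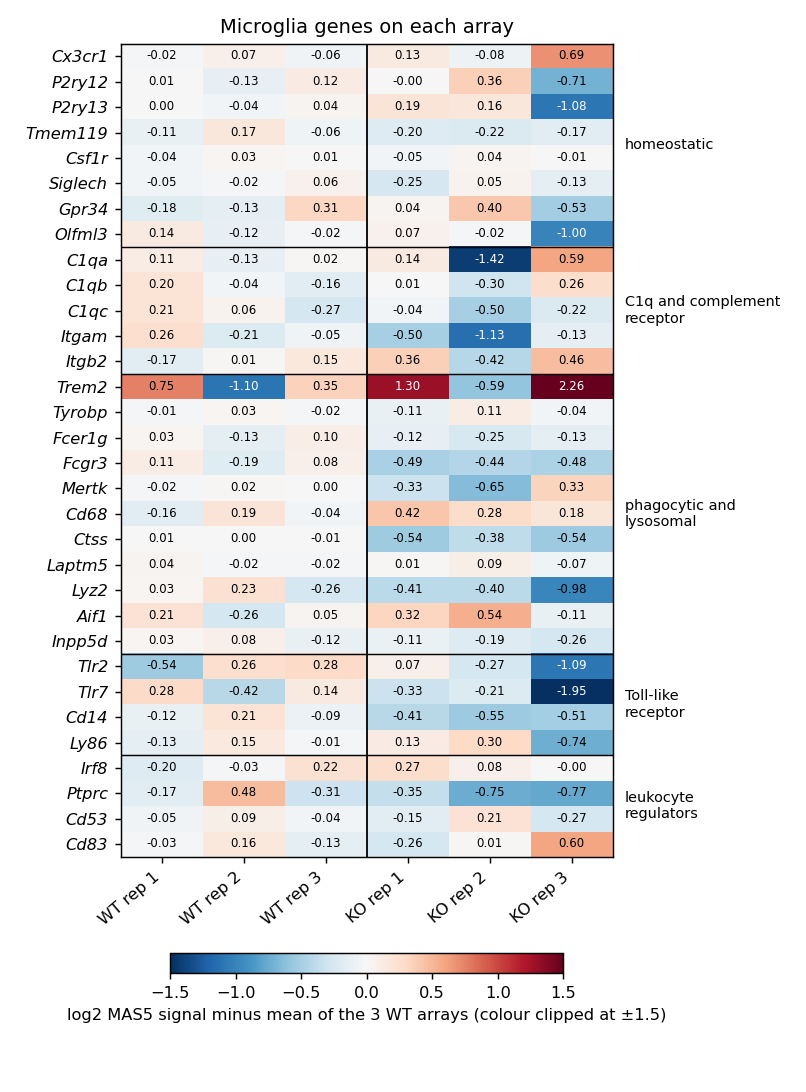
Log2 MAS5 signal of 32 microglia genes (rows, grouped by role) on each of the 6 arrays (columns), less the mean of the 3 WT arrays; blue is below and red above that mean. Ctss, Fcgr3, Cd14 and Lyz2 are blue on all 3 KO arrays, while P2ry12, P2ry13, Olfml3, Ly86 and Tlr7 are darkest on KO replicate 3 and C1qa and Itgam on KO replicate 2.

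The homeostatic genes, which mark microglia at rest, had lower means in KO for 7 of 8, with a median difference of -0.11. Over the 8 genes the median on KO replicates 1, 2 and 3 was 0.02, 0.04 and -0.35 relative to the WT mean. None of the 8 reached an unadjusted p of 0.05. Tmem119, a membrane protein gene used to tell microglia from other macrophages, had log2 signals of 8.50, 8.77 and 8.55 in WT and 8.41, 8.39 and 8.43 in KO. Its KO arrays lay close together and just under the lowest WT array. The means were 8.61 ± 0.15 (SD, n = 3) and 8.41 ± 0.02 (SD, n = 3), and the difference of -0.20 had a 95% interval of -0.52 to 0.12.
Csf1r, the receptor for the survival factors Csf1 and Il34, had signals of 12.04, 12.10 and 12.08 in WT and 12.03, 12.11 and 12.07 in KO. The groups overlapped fully, and the difference was -0.01 with a 95% interval of -0.19 to 0.18. Its other 2 kept probe sets differed by 0.08 and 0.05. Siglech, a sialic acid binding receptor, differed by -0.11, with KO replicate 1 the lowest array and WT replicate 3 the highest.
The purinergic receptor P2ry12, through which microglia sense nucleotides released by damaged cells, had signals of 10.07, 9.93 and 10.18 in WT and 10.06, 10.42 and 9.35 in KO. Its relative P2ry13 had 8.31, 8.26 and 8.35 in WT and 8.49, 8.47 and 7.22 in KO. For both, KO replicate 3 was the lowest array and the other KO arrays lay within or above the WT range. The differences of -0.12 and -0.24 became 0.18 and 0.18 without KO replicate 3.
Gpr34, a receptor for lysophosphatidylserine, and Olfml3, a secreted glycoprotein gene, differed by -0.03 and -0.32. Both were lowest on KO replicate 3, at 7.63 and 7.59, and without it their differences were 0.22 and 0.03. Cx3cr1, the fractalkine receptor, was the homeostatic gene with a higher mean in KO. Its signals were 8.78, 8.87 and 8.74 in WT and 8.93, 8.72 and 9.49 in KO, so the groups overlapped and KO replicate 3 was the highest. The difference of 0.25 (95% interval -0.23 to 0.73) was 0.03 without that array. The part of the thalamus signal of KO replicate 3 in these values was not tested.

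The 3 chains of C1q, the protein that starts the classical complement cascade, are made in the brain mainly by microglia, and none of them differed beyond the spread between arrays. C1qa had signals of 10.15, 9.92 and 10.06 in WT and 10.18, 8.62 and 10.64 in KO. The KO arrays spanned more than the WT arrays on both sides, with KO replicate 2 lowest and KO replicate 3 highest, and the difference of -0.23 had a 95% interval of -1.31 to 0.85. It was 0.37 without KO replicate 2 and -0.64 without KO replicate 3.
C1qb had signals of 10.25, 10.01 and 9.89 in WT and 10.06, 9.75 and 10.32 in KO. C1qc had 9.83, 9.68 and 9.36 in WT and 9.58, 9.13 and 9.40 in KO. Groups overlapped for both, KO replicate 2 was again the lowest array, and the differences were -0.01 and -0.25. The other 2 kept probe sets of C1qb differed by -0.12 and -0.01.
Itgam and Itgb2 encode the alpha and beta chains of the complement receptor CR3. Itgam had signals of 6.68, 6.22 and 6.37 in WT and 5.92, 5.29 and 6.29 in KO, and the difference of -0.59 had a 95% interval of -1.37 to 0.20 and was -0.32 without KO replicate 2. Its KO replicate 3 lay within the WT range, KO replicate 2 was far below it, and 2 of the 6 arrays were under the filter level. Itgb2 had 6.66, 6.84 and 6.98 in WT and 7.18, 6.40 and 7.28 in KO, a difference of 0.13 with the KO arrays on both sides of the WT arrays. Over the 5 genes the median on KO replicates 1, 2 and 3 was 0.01, -0.50 and 0.26 relative to the WT mean.

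The phagocytic and lysosomal genes held 3 of the 5 genes lower at an unadjusted p of 0.05. Of the 11, 7 had a lower mean in KO, and the median difference was -0.17. Ctss, the lysosomal protease cathepsin S, had signals of 12.03, 12.03 and 12.02 in WT and 11.49, 11.64 and 11.48 in KO. The WT arrays were nearly equal and every KO array lay at least 0.37 below the lowest of them. The means were 12.02 ± 0.01 (SD, n = 3) and 11.54 ± 0.09 (SD, n = 3), and the difference of -0.49 (standard error 0.09, 95% interval -0.69 to -0.28) put KO at 71.4% of WT. In limma it had an unadjusted p of 0.000714 and an adjusted p of 0.285.
Without KO replicate 3, Ctss had a difference of -0.46 and an adjusted p of 0.0445 in limma, and it was the microglia gene that passed there, beside 0.403% of all genes. Over all 18 alternative settings its difference lay between -0.54 and -0.46, with adjusted p in limma between 8.84e-05 and 0.987. The lowest value came with array weights, described below, where 25.9% of all genes passed and the weights did not converge.
Fcgr3, an activating receptor for the Fc part of antibodies, had signals of 9.04, 8.75 and 9.02 in WT and 8.45, 8.50 and 8.46 in KO. The KO arrays lay within 0.05 of each other and 0.25 or more below the WT arrays. The difference was -0.47 (standard error 0.14, 95% interval -0.79 to -0.15, adjusted p = 0.572 in limma), which is 72.3% of WT.
Lyz2, the lysozyme of macrophages and neutrophils, had signals of 8.82, 9.01 and 8.52 in WT and 8.38, 8.38 and 7.80 in KO. The groups did not overlap, with KO replicate 3 the lowest, and the difference of -0.60 (standard error 0.21, adjusted p = 0.638 in limma) was -0.40 without that array. The neighbouring lysozyme gene Lyz1 is nearly identical, and 2 probe sets named for it, of a type that can bind related transcripts, differed by -0.80 and -1.03, so the share of each gene in the Lyz2 signal is uncertain.

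**Figure D2:**
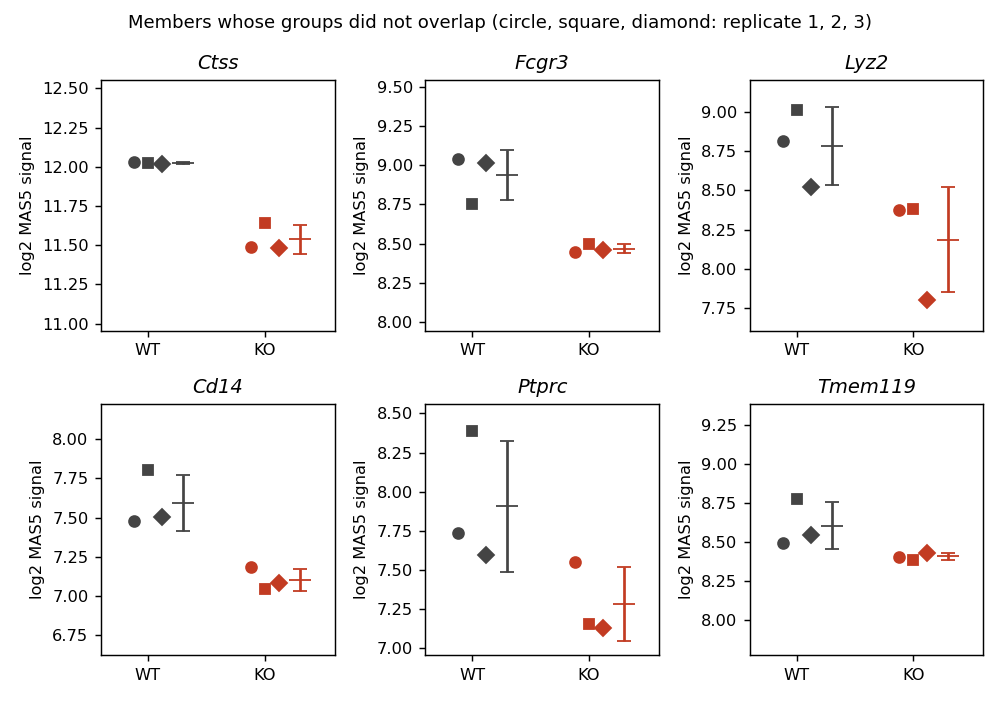
Log2 MAS5 signal (y axis, 1.6 log2 units in each panel) of the 6 microglia genes whose KO arrays all lay below the WT arrays, with a symbol for each array and the mean ± SD of the 3 arrays beside it. The gap between the groups is 0.37 for Ctss and 0.05 for Ptprc.

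Among the adaptors that carry the signals of such receptors, Tyrobp, the adaptor of Trem2, had signals of 9.65, 9.70 and 9.65 in WT and 9.55, 9.77 and 9.63 in KO, a difference of -0.02 with a 95% interval of -0.29 to 0.26. Fcer1g, the chain through which Fc receptors signal, had 8.90, 8.74 and 8.97 in WT and 8.75, 8.63 and 8.74 in KO. Its groups overlapped by 0.01, and the difference was -0.17 with a 95% interval of -0.47 to 0.14. Inpp5d, the lipid phosphatase SHIP1 that restrains this signalling, differed by -0.19 in its brighter probe set and by -0.63 in a dimmer one, and its groups overlapped by 0.01 in the brighter one.
Trem2, a lipid receptor of microglia, was close to the filter level. It had signals of 6.23, 4.38 and 5.82 in WT and 6.78, 4.89 and 7.73 in KO, and was above the filter level on 3 of the 6 arrays. Replicate 2 was low in both groups, and the difference of 0.99 had a 95% interval of -0.84 to 2.81. Without KO replicate 3 it was 0.35.
Mertk, a receptor for the uptake of dying cells, had 10.05, 10.09 and 10.08 in WT and 9.74, 9.42 and 10.41 in KO. The WT arrays lay within 0.04 of each other, and the KO arrays lay below them in replicates 1 and 2 and above them in replicate 3, with a difference of -0.22. Cd68, a lysosomal membrane protein gene, had 7.32, 7.67 and 7.44 in WT and 7.89, 7.75 and 7.66 in KO. Its groups overlapped by 0.01, and the difference of 0.29 had a 95% interval of -0.11 to 0.70.
Aif1, which encodes the actin-binding protein Iba1, differed by 0.25 (95% interval -0.28 to 0.77), with all arrays between 7.34 and 8.14. Laptm5, a lysosomal membrane protein gene of blood lineage cells, differed by 0.01 in its brightest probe set, with all arrays between 9.08 and 9.24, and by 0.05 and -0.29 in 2 others.

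**Figure D3:**
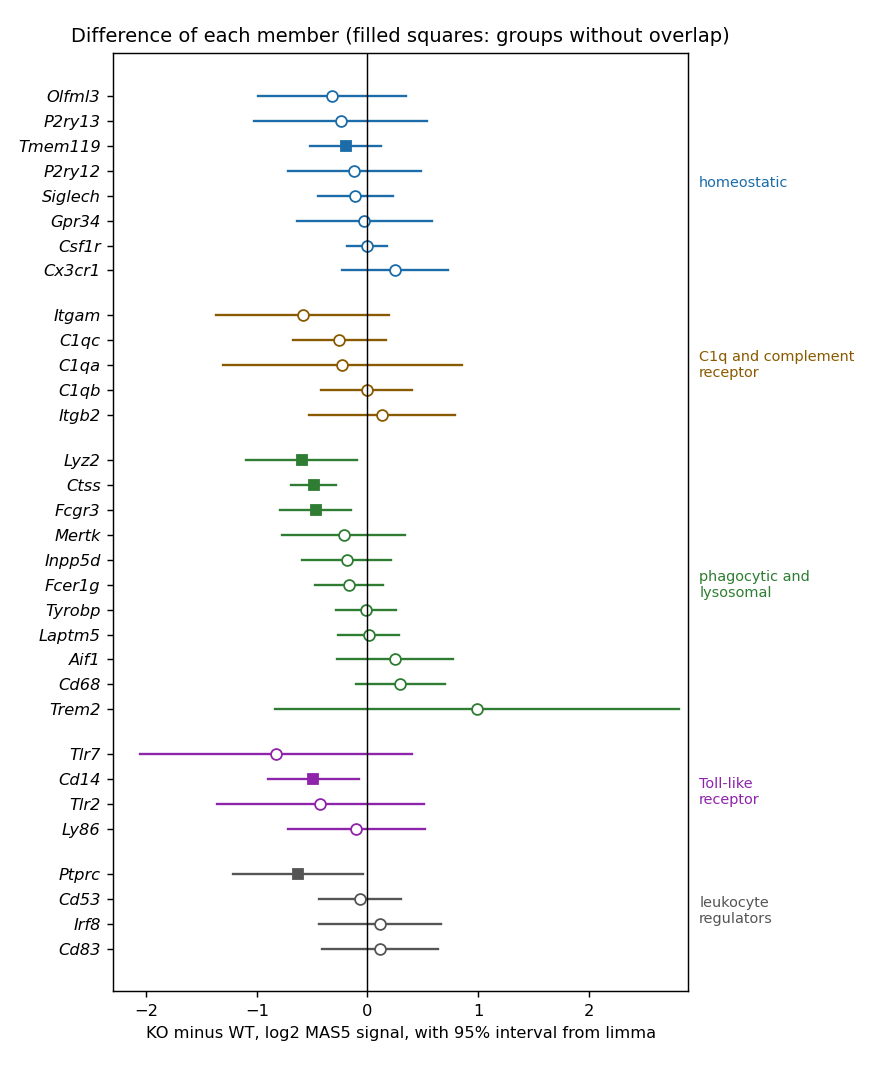
Difference KO minus WT in log2 MAS5 signal (x axis) of 32 microglia genes with its 95% interval from limma over 3 arrays of each group, grouped by role; filled squares are genes whose groups did not overlap. The interval lies wholly below 0 for Ctss, Fcgr3, Lyz2, Cd14 and Ptprc, and for none of the 32 wholly above 0.

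The 4 measured genes of the Toll-like receptor group all had lower means in KO, with a median difference of -0.46. Over these genes the median on KO replicates 1, 2 and 3 was -0.13, -0.24 and -0.91 relative to the WT mean. Cd14, the co-receptor that hands bacterial lipopolysaccharide to Tlr4, had signals of 7.48, 7.80 and 7.50 in WT and 7.18, 7.05 and 7.08 in KO. The groups lay 0.30 apart, and the difference was -0.49 (standard error 0.18, 95% interval -0.90 to -0.07, adjusted p = 0.638 in limma), which is 71.2% of WT.
Tlr2, the receptor for bacterial lipoproteins, had 5.78, 6.58 and 6.60 in WT and 6.40, 6.06 and 5.24 in KO. Tlr7, the receptor for single-stranded RNA in endosomes, had 6.36, 5.66 and 6.22 in WT and 5.75, 5.88 and 4.14 in KO. For both the groups overlapped, the signal was near the filter level of 5.73 to 6.05, and KO replicate 3 was the lowest array. Their differences of -0.43 and -0.83 were -0.10 and -0.27 without it. Ly86, which encodes the partner of a Toll-like receptor relative on B cells and macrophages, differed by -0.10, and by 0.21 without KO replicate 3. Tlr4 itself had 4 probe sets, none of which was kept.

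Of the leukocyte regulators, 4 of 6 were measured. Ptprc, the phosphatase CD45 found on all white blood cells and at a low level on microglia, had signals of 7.74, 8.38 and 7.60 in WT and 7.55, 7.16 and 7.13 in KO. The groups lay only 0.05 apart, with WT replicate 2 far above the other arrays, and the difference was -0.63 (standard error 0.25, adjusted p = 0.659 in limma), which is 64.8% of WT. Without WT replicate 2 it was -0.39.
Cd53, a tetraspanin gene of white blood cells, Irf8, a transcription factor of the macrophage lineage, and Cd83, an activation marker, differed by -0.07, 0.11 and 0.11. The groups of all 3 overlapped. The sign for Cd83 rested on KO replicate 3, at 9.76 the highest array, and the difference was -0.13 without it. Spi1, which encodes PU.1, had 5.91, 5.60 and 5.87 in WT and 6.12, 4.46 and 5.68 in KO, close to or under the filter level, and was not tested.

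The lowest signal of a microglia gene fell on KO replicate 3 for 13 of the 32 genes, on KO replicate 2 for 10 and on KO replicate 1 for 5. The highest signal fell on KO replicate 2 for 8 genes, on KO replicate 3 for 7, on WT replicate 1 for 6, on WT replicate 2 for 5 and on WT replicate 3 and KO replicate 1 for 3 each. The median over the 32 genes was -0.04, -0.20 and -0.15 relative to the WT mean on KO replicates 1, 2 and 3. Over all genes tested it was 0.03, 0.04 and -0.01 on these arrays. The 3 WT arrays lay between -0.01 and 0.01 over the 32 genes. That mean is their own and draws them toward it, so this range does not measure the WT spread. KO replicate 3 was below all WT arrays for 19 of the 32 genes, where 41.7% of all genes were. KO replicate 1, with 13 of 32, and KO replicate 2, with 15 of 32, were below them where 26.2% and 30.3% of all genes were.

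Genes of the same pathways that are not among the 35 were taken from lists of known pathway members, and none of those lists held a gene that passed an adjusted p of 0.05. Of 8 measured ligands and signals that act on microglia, 6 had a higher and 2 a lower mean in KO. Il34, made by neurons and a ligand of Csf1r, had 8.88, 8.69 and 9.10 in WT and 8.75, 8.28 and 8.28 in KO, a difference of -0.45. Cd200, a neuronal signal that quiets microglia, differed by 0.32, and the groups overlapped for both genes.
Of 17 further microglial genes, 8 had a higher and 9 a lower mean, with a median of -0.03. Selplg, the ligand of P-selectin, had 9.40, 9.17 and 9.33 in WT and 8.98, 8.90 and 8.98 in KO, a difference of -0.35 without overlap (adjusted p = 0.638 in limma). Trem1, a receptor that amplifies inflammatory signals in myeloid cells, differed by -1.20, also without overlap. Its signals were 6.57, 6.82 and 6.59 in WT and 4.10, 6.22 and 6.07 in KO, with KO replicate 1 far the lowest. Cst3, the cathepsin inhibitor cystatin C, differed by -0.08, and Adgre1, the macrophage marker F4/80, by 0.21.
Of 12 measured genes of ITAM and Fc receptor signalling, 6 were higher and 6 lower on average. Fcgr2b, the inhibitory Fc receptor, differed by -0.58, and Vav1 and Plcg2, signalling enzymes downstream of these receptors, by -0.48 and -0.23, the last 2 without overlap. Of 14 genes of Toll-like receptor signalling, 9 were higher and 5 lower on average, with Myd88, the adaptor of most of these receptors, at -0.42 and Irak1, a kinase that it recruits, at 0.45.
Of 6 measured genes of the complement cascade beyond C1q, 5 had a higher mean, among them the complement inhibitors Cd55 at 0.61 and Cd59a at 0.53, and all of them overlapped between the groups. Of 12 measured genes known to rise in activated microglia, 3 had a higher and 9 a lower mean. Their median on KO replicates 1, 2 and 3 was 0.16, 0.05 and -0.51 relative to the WT mean, so it was below WT on KO replicate 3 alone. Cd9, a tetraspanin gene that other brain cells also express, differed by 0.39 without overlap, and Gpnmb and Lgals3, genes of lipid-laden phagocytes, by -0.38 and 0.46.

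Blood cell markers were set beside the microglia genes. Of the 12 listed markers of monocytes and neutrophils, 5 were kept. Plac8 and S100a9 were above the filter level on the WT arrays alone, so they were kept through the group where they are high, and the direction of the list is partly set by the filter. The summed signal of the 5, on the linear MAS5 scale, was 485 to 778 on the WT arrays and 224 to 279 on the KO arrays. None of the 5 was above the filter level on all 6 arrays, and Ccr2, Ly6c2, Camp, Chil3, Elane and Mpo were among those not kept. S100a8, a calcium-binding protein gene of neutrophils, had 7.76, 8.24 and 7.60 in WT and 5.75, 6.38 and 6.24 in KO, a difference of -1.74 (adjusted p = 0.161 in limma).
Red blood cell markers had a summed signal of 1825 to 2076 in WT and 120 to 234 in KO. Of the 9 listed, 4 were kept and none was above the filter level on all 6 arrays, with Hbb-b2 and Slc4a1 under it on every KO array and so kept through WT. Alas2 and Hbb-b2 fell with adjusted p of 0.0366 and 0.0285 in limma. Slc4a1 differed by -4.07 (adjusted p = 0.0888 in limma), and Hba-a2 by only -0.38, with overlapping groups. Lyz2, Cd14, Ptprc, Fcgr3, Ctss and Selplg are known to be expressed by blood monocytes or neutrophils as well as by brain macrophages. All of them had every KO array below the WT arrays. Laptm5 and Cd53, genes of blood cells as described above, differed by 0.01 and -0.07, with overlapping groups. The part of blood cells in any of these differences was not tested. Of 12 lymphocyte markers, Cd8a alone was kept, with a difference of -0.09.
Macrophages at the borders of the brain share many of the 35 genes. Of 10 listed markers, 7 were kept, 4 of them above the filter level on all arrays, and Cd163, Cbr2 and Clec10a were not kept. Their summed signal was 773 to 1020 in WT and 586 to 768 in KO, with 5 lower and 2 higher on average. Pf4, also abundant in platelets, had 8.72, 8.59 and 8.68 in WT and 7.62, 7.51 and 7.05 in KO (difference -1.27, adjusted p = 0.154 in limma), while Mrc1, the mannose receptor of border macrophages, differed by -0.25. F13a1 differed by -0.30, and Ms4a7 went the other way at 0.86, with WT arrays between 3.29 and 6.49. The groups of both overlapped. The part of these cells in the microglia values was not tested.
The median difference was 0.02 over 12 astrocyte markers, 0.29 over 11 oligodendrocyte markers, 0.05 over 11 endothelial markers, -0.29 over 11 markers of hippocampal neurons and 0.999 over 10 thalamus markers, the last with KO replicate 3 far above the other arrays.

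**Figure D4:**
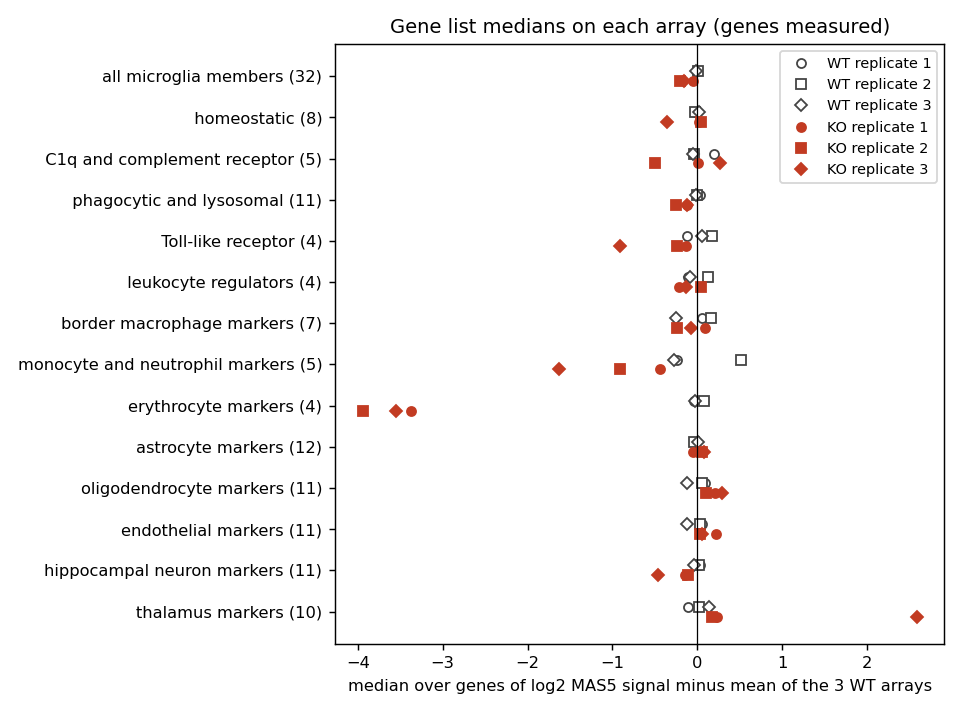
Median log2 MAS5 signal, less the WT mean (x axis), over the measured genes of each list (y axis, number of genes in brackets), with a symbol for each of the 6 arrays. The 3 KO arrays lie between -0.20 and -0.04 for the 32 microglia genes and at 0.24, 0.18 and 2.59 for thalamus markers, and the monocyte, neutrophil and erythrocyte lists hold genes that were kept through the WT arrays alone.

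Weighting the arrays by quality changed the number of microglia genes called. With weights estimated over all genes, 8 of the 32 passed an adjusted p of 0.05 in limma, with Ctss, Fcgr3, Lyz2, Cd14, Itgam and Mertk lower and Cd68 and Trem2 higher in KO, but 25.9% of all genes passed as well and the weights did not converge. With weights estimated gene by gene, Ctss alone of the 32 passed, at an adjusted p of 0.00952 and a difference of -0.51, beside 0.891% of all genes.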

How the data were processed

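The authors deposited log2 MAS5 signals for 45037 probe sets on 6 Affymetrix arrays of mouse hippocampus, scaled to a common trimmed mean per array (497 to 498 on the linear scale after 2% was trimmed at each end). MAS5 and affy appear in the submitters' processing notes with no version. GeneSpring was used in the study, which also removed probes called Absent, but those calls were not used here. MAS5 log2 values of dim probe sets are noisy, so small signals spread more than bright ones.

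In their place, probe sets were kept that were brighter than 40 percent of the array on 3 or more arrays, which left 27408. Of these, 23132 had a single gene symbol, and each of 12903 genes was represented by its brightest one. The genotypes were compared on all 6 arrays by limma 3.58.1 under R 4.3.3 (lmFit, eBayes with trend), with Benjamini-Hochberg adjustment over all 12903 genes and 95% intervals from the same fit. The fit was tested on simulated data. The 35 microglia genes and all gene lists were chosen with earlier results of these data known. All microglia genes may be named, and of every other list up to 4 genes with the smallest p and any that passed. Blood, border macrophage, thalamus and glial markers were summarised from the same fit, without a set test.

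Promoter windows came from RefSeq GRCm38.p6, which held 23 of the 35 genes in the table used. Promoters were shown for those of the 23 with an unadjusted p under 0.05 in limma. Cd14 also had such a p and is not shown. Alternatives were quantile normalization, median centring, other filters, 16 signal units added before log2, a variance model without trend, array weights, a replicate block, other gene rules and leaving out each array. The number of arrays limits the precision.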

Additional observations from a re-analysis of the deposited data

How the results depend on the processing

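Over 18 alternatives, 17 of the 32 genes kept the sign of their difference and 15 did not, and 37 of 567 recomputed differences of single genes changed sign. Ctss, Fcgr3, Lyz2, Cd14, Ptprc and Tmem119 were lower in KO under every alternative that measured them. Their groups did not overlap in the deposited values, so leaving out or weighting arrays could not turn these signs. Under median centring 5 genes were lower without overlap, against 4.28% of all genes, with Itgam in and Tmem119 and Lyz2 out. The causes of the changes below were not tested.

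No gene passed an adjusted p of 0.05 in limma except 8 with array weights, 1 with weights estimated gene by gene, an alternative added after seeing the data because the planned weights did not converge, and, when arrays were left out, 0 to 1 (Ctss, without KO replicate 3). With a filter at the 60th percentile, where 23 genes were measured, 3 were lower at an unadjusted p of 0.05 in limma. With array weights the count was 10. It was 2 to 6 when arrays were left out, with 2 without WT replicate 1 or WT replicate 2 and 3 without KO replicate 2. The share of all genes at that unadjusted p was not computed for any alternative, so these counts cannot be set against it. The count higher without overlap was 0 to 4 when arrays were left out, with 4 without KO replicate 2 (18.7% of all genes), 3 without KO replicate 3 (18.8%) and 1 without WT replicate 2 or 3 (14.1% and 14.0%). The median difference stayed between -0.18 and -0.07.

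Signs turned for C1qb (0.00354) and Laptm5 (-0.00388) with quantile normalization, for Laptm5 (-0.022) with median centring, and for Csf1r (0.041) and Laptm5 (-0.078) with the mean of kept probe sets. With array weights they turned for P2ry12 (0.00391), P2ry13 (0.18), Gpr34 (0.093), Olfml3 (0.038), C1qa (0.10), Tlr2 (0.16), Ly86 (0.15) and Cd83 (-0.26), and with weights gene by gene for P2ry12 (0.036), P2ry13 (0.12), Gpr34 (0.13), Tlr2 (0.040), Ly86 (0.13) and Cd83 (-0.18).

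When each array was left out, differences ran from -0.36 to 0.18 for P2ry12, -0.46 to 0.18 for P2ry13, -0.24 to 0.22 for Gpr34, -0.51 to 0.025 for Olfml3, -0.027 to 0.016 for Csf1r, -0.64 to 0.37 for C1qa, -0.14 to 0.14 for C1qb, -0.033 to 0.41 for Itgb2, -0.077 to 0.033 for Tyrobp, -0.49 to 0.00334 for Mertk, -0.029 to 0.050 for Laptm5, -0.30 to 0.21 for Ly86, -0.21 to 0.031 for Cd53 and -0.13 to 0.30 for Cd83.

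Deviations of arrays with the same replicate number correlated at -0.04, 0.07 and 0.13 across genes, against -0.16 to 0.20 for other pairs of WT and KO arrays. Whether the numbers pair the samples cannot be told from these values. With a replicate block, 0 microglia genes and 4 of all genes passed, 4 microglia genes were lower at an unadjusted p of 0.05, and the median difference was -0.14. Signals near the filter level, as for Trem2, Tlr2, Tlr7 and Itgam, limit what can be read from those genes.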
